A study of Mus musculus with 30 samples.

Results

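A set of 7 genes of sex steroid signalling was followed in ribosome-bound RNA from the nucleus accumbens of female mice: the nuclear oestrogen receptors Esr1 and Esr2, the membrane oestrogen receptor Gper1, the nuclear progesterone receptor Pgr, the orphan oestrogen-related receptors Esrra and Esrrg, and the membrane progesterone receptor component Pgrmc1. They were chosen by symbol, and all 7 were found among the 55335 genes of the count table. All 7 also passed the filter on low counts, which 19368 genes passed. Androgen receptors are not analysed here.

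The mice carried RiboTag, a tagged ribosomal protein switched on by Cre, in either class of medium spiny neuron, the main projection neuron of the nucleus accumbens. D1-Cre-RT mice mark the neurons with the D1 dopamine receptor. A2A-Cre-RT mice mark those with the A2A adenosine and D2 dopamine receptors, and their libraries are called D2 here. Control females were compared with females that had gone through chronic witness defeat stress, in which a mouse watches the defeat of another, and that were then sorted by social interaction into Resilient and Susceptible. The design had 6 groups of 5 libraries (D1 and D2, each Control, Resilient and Susceptible), and every library pooled 4 mice with similar social interaction ratios. Punches of the nucleus accumbens were collected 24 h after that test. The sources used here give no strain, age or oestrous stage, and all 6 groups carried RiboTag and a Cre. Cre marks every cell that expresses the driver, and the pull-down can also carry RNA of unmarked cells.

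Oestradiol and progesterone bind nuclear receptors that act as transcription factors with co-regulators and chaperones. Gper1 is a G protein-coupled receptor for fast oestrogen signalling, known from neurons and also from cells of blood vessels. Esrra and Esrrg resemble the oestrogen receptors but bind no oestrogen, and they drive genes of mitochondrial energy metabolism. Pgrmc1 is a haem-binding membrane protein linked to fast progesterone responses and to sterol synthesis. In the striatum, oestrogen receptors are known mostly from outside the nucleus, at membranes and in axons and dendrites.

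Gene counts per library ranged from 28996168 to 65882152, and libraries were compared as CPM, the counts scaled to a common library size with TMM factors. D2 Susceptible replicates 1 and 2 stood apart, with 15822 and 16525 genes detected against 19440 to 22375 in the other 28 libraries. All libraries are labelled female, yet replicate 1 of that group held 144 counts of the Y-linked gene Uty, against 0 in the other 29 libraries, and 267 counts of Ddx3y. Ddx3y had 56 counts in replicate 2, and the remaining 28 libraries had at most 13. The other two Y-linked genes examined did not follow them: Kdm5d had 0 counts in replicate 1 and 1 in replicate 2, against at most 2 elsewhere, and Eif2s3y had 0 in both, against at most 13 elsewhere. D1 Susceptible replicate 1 stood apart in another way, with 53.3% of its reads in the summary lines of unassigned reads and a TMM factor of 0.340, against 0.957 to 1.08 in the other 29. Its effective library size was 9855837 counts, so that 3 counts were worth 0.304 CPM. Values that turned on these 3 libraries are also given without them. The 7 D1 markers (Drd1 and Pdyn among them) summed to 1736 to 2609 CPM in D1 and 280.7 to 1858 CPM in D2. The 5 D2 markers (Adora2a and Penk among them) summed to 1120 to 2771 CPM in D1 and 4867 to 12799 CPM in D2, so D2 markers were counted in every D1 library. The D1 marker sums overlapped: the highest D2 library, Resilient replicate 5 with 414 CPM of Drd1, lay above the lowest D1 library. The lowest D2 value of Penk, 4038 CPM, was in D2 Resilient as well.

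The stretch of 250 bases before the RefSeq start of 3 of the genes is printed (GRCm38.p6, plus strand, 5′ to 3′). Gper1 was the gene that edgeR called between the classes, Pgr the one that DESeq2 but not edgeR called in D2 Susceptible, and Pgrmc1 the most abundant. Capitals mark each CpG. Gper1 lies at chr5:139422929-139423178, Pgr at chr9:8899583-8899832 and Pgrmc1 at chrX:36597943-36598192.
Gper1: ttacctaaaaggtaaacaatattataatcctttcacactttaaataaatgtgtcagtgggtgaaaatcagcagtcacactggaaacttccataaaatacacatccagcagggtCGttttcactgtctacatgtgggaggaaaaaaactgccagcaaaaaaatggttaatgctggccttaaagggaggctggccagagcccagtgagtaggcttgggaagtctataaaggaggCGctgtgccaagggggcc
Pgr: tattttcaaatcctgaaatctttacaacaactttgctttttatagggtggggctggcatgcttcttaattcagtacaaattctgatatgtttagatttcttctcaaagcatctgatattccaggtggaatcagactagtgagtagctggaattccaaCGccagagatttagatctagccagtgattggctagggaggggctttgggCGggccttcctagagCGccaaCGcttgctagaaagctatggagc
Pgrmc1: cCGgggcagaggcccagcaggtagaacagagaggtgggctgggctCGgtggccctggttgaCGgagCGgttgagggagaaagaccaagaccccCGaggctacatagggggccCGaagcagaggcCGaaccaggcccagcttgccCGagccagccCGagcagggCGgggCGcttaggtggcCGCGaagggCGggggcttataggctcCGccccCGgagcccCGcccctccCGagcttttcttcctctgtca
The Gper1 stretch held 2 CpG at 44% GC, and 29% of all 32851 RefSeq promoters of this length had as few CpG. Pgr held 4 CpG at 43.6% GC, and Pgrmc1 held 18 CpG at 69.6% GC, a number that 21.7% of promoters reached. The median over all promoters was 6 CpG and 52.4% GC. The 7 genes had 11 such promoters. None held the full oestrogen response element GGTCANNNTGACC (0.0639% of all promoters did, both strands searched), its shorter core AGGTCA (14% did) or the oestrogen-related receptor element TCAAGGTCA, which contains that core (0.387% did). The progesterone response core AGAACA was in 1 of the 11, that of Pgrmc1, against 16.1% of all promoters. The GC box GGGCGG was in 5 of the 11, those of Pgr and Pgrmc1 among them, against 32.7%. A missing match says only that these letters were not in the window.

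Set side by side per kilobase of exon, the 7 genes spanned a wide range. Pgrmc1 (chromosome X, 36598206 to 36606079) was the most abundant, at a mean of 302 CPM per kb in D1 and 291 in D2. Esrra (chromosome 19, 6910977 to 6921813) followed at 14.5 and 15.3 CPM per kb. Esrrg (chromosome 1, 187608791 to 188214885) had 3.47 and 2.78 CPM per kb, and Pgr (chromosome 9, 8899833 to 8968611) had 2.24 and 2.66. The libraries of Esrrg and Pgr overlapped in either class, so these neighbours in the order were not separated, while Pgrmc1 over Esrra and Esrra over Esrrg were separated in every library of either class.

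The 3 oestrogen receptors were the lowest of the 7 in D1. Esr1 (chromosome 10, 4611593 to 5005614) had a mean of 0.176 CPM per kb in D1, Gper1 (chromosome 5, 139423151 to 139427800) had 0.0655 and Esr2 (chromosome 12, 76120419 to 76177259) had 0.0315, with overlapping libraries between neighbours. In D2 the order per kb changed: Gper1 had 0.828 CPM per kb, 4.99 times the 0.166 of Esr1, and every D2 library of Gper1 lay above every D2 library of Esr1 on this scale. That order rests on the length of all annotated exons merged, 13661 bases for Esr1 and 2537 for Gper1. In plain CPM the D2 libraries of both genes overlapped, at means of 2.27 for Esr1 and 2.10 for Gper1. Esr2 was again the lowest at 0.0246 CPM per kb.

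**Figure D1:**
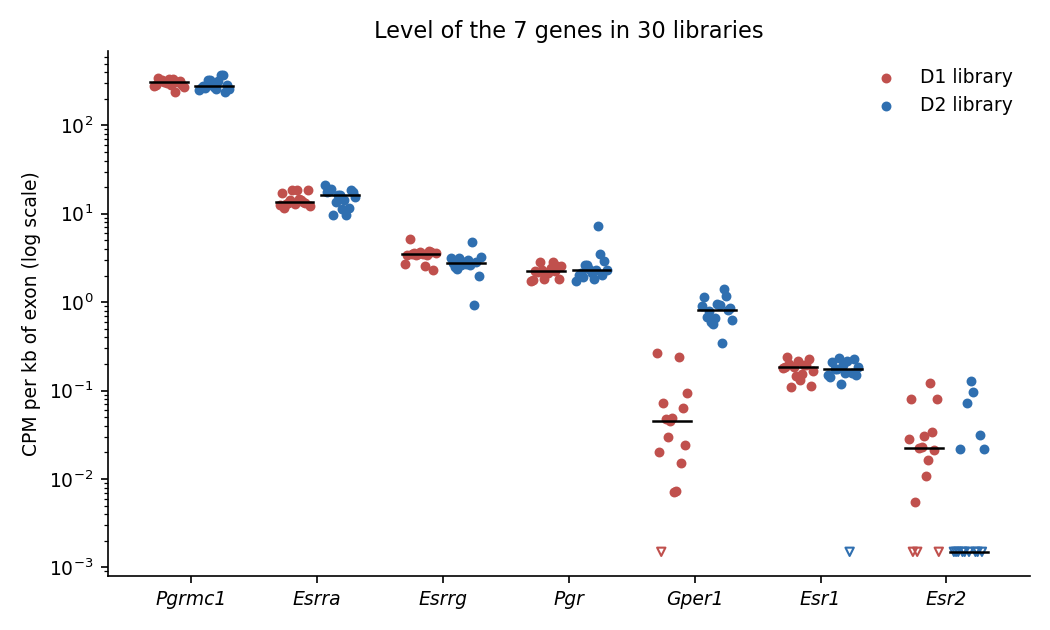
Level of each gene in CPM per kilobase of exon (log scale) in the 15 D1 and 15 D2 libraries; each point is a library, the black line is the median of the class, and open triangles at the bottom are libraries with a count of 0. Gper1 is the gene whose classes separate, at 0.0655 CPM per kb on average in D1 and 0.828 in D2, while the other 6 overlap.

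The comparison of classes asked whether a receptor was carried more by one class of neuron. By edgeR, Gper1 was the one gene of the 7 that differed, and it was lower in D1 in all 4 comparisons of the classes: a mean of 0.166 ± 0.205 CPM in D1 against 2.10 ± 0.691 CPM in D2 (SD, n = 15 libraries each). In D1 Control the 5 libraries had 0.677, 0.0511, 0, 0.185 and 0.121 CPM, and in D2 Control 2.28, 2.90, 1.71, 2.01 and 1.52 CPM. D1 Resilient had 0.0750, 0.116, 0.124, 0.0181 and 0.0185 CPM, against 1.45, 1.67, 2.41, 2.34 and 0.865 CPM in D2 Resilient. D1 Susceptible had 0.609, 0.0380, 0.161, 0.0619 and 0.238 CPM, against 3.56, 3.01, 2.07, 2.16 and 1.57 CPM in D2 Susceptible.

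The highest D1 library of Gper1, Control replicate 1, lay below the lowest D2 library, Resilient replicate 5, so the classes did not overlap. In raw numbers, the D1 libraries held 0 to 43 counts (112 in all 15) and the D2 libraries 43 to 166 (1809 in all). Of the 15 D1 libraries, 6 held 3 counts or fewer, the limit that a count of 0 allows, so differences among them were hardly detectable at this depth.

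Over the 3 conditions Gper1 was 14.8-fold lower in D1 libraries (log2 -3.89, SE 0.425, edgeR adjusted p 1.71e-08). Within Control libraries it was 9.82-fold lower (log2 -3.30, SE 0.698, edgeR adjusted p 0.00203). Within Resilient it was 24.3-fold lower (log2 -4.60, SE 0.767, edgeR adjusted p 0.000113), and within Susceptible 13.5-fold lower (log2 -3.76, SE 0.744, edgeR adjusted p 0.000600). All 4 calls were kept under every alternative and with any 1 library left out. Without D2 Susceptible replicates 1 and 2 the log2 difference was -3.45 within Susceptible and -3.77 over all conditions. The 0.609 CPM of D1 Susceptible replicate 1 stood for 6 counts, and without that library the same differences were -4.27 and -4.06. Without all 3 libraries that stood apart they were -3.91 and -3.94. Without D1 Control replicate 1, the highest D1 library, the difference within Control was -4.51.

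A class difference was common among all genes tested. The share of genes called lower in D1 was 4.8% within Control, 3.9% within Resilient, 13.4% within Susceptible and 15.5% over all conditions, and in either direction it was 8.3%, 6.65%, 23.9% and 29.3%. A share of 6.05%, 5.01%, 4.12% and 0.666% of genes, in the same order, had all D1 libraries below all D2 libraries, as Gper1 had.

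**Figure D2:**
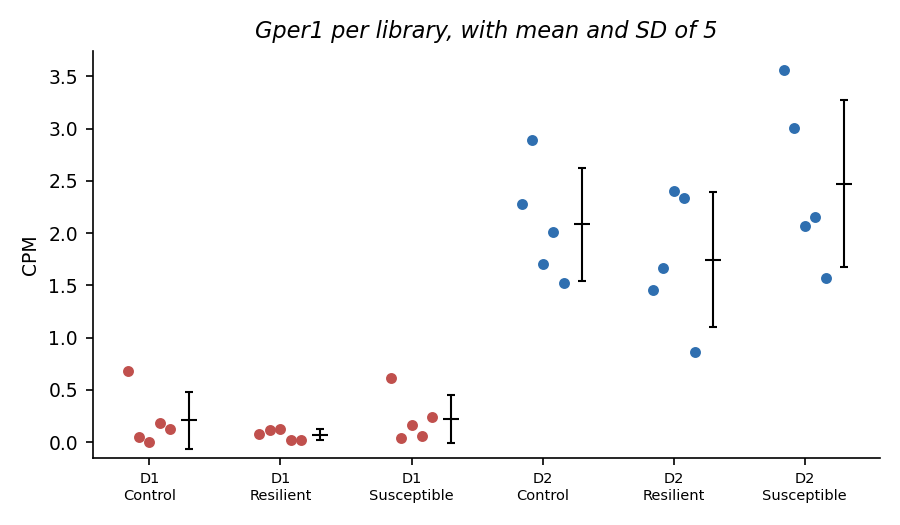
Gper1 in CPM in each of the 30 libraries by group; points are libraries and the bars beside them are the mean and SD of 5. All D1 libraries are at or below 0.677 CPM and all D2 libraries at or above 0.865 CPM.

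Markers of blood vessel cells moved with Gper1. The 6 endothelial and mural genes Cldn5, Flt1, Pecam1, Vwf, Rgs5 and Ly6c1 summed to 18.3 to 49.5 CPM in the D1 libraries and 89.4 to 377.5 CPM in the D2 libraries. All 6 of 6 were lower in D1 over the conditions, with log2 differences from -2.76 (Vwf, von Willebrand factor) to -3.65 (Flt1, a receptor for vascular growth factor), edgeR adjusted p 1.25e-09 or less. Ly6c1 has close relatives next to it, and reads could be split between them. None of the 6 was at 0 in every library.

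Per 100 CPM of these 6 genes, Gper1 had 0.774 CPM in D1 Control, 0.350 in D1 Resilient and 0.608 in D1 Susceptible, and 0.789, 0.810 and 0.842 CPM in the D2 groups in the same order. These are ratios of sums over a group, and single libraries weighed heavily in D1. Replicate 1 of D1 Control held 0.677 of the 1.03 CPM of Gper1 and 40.01 of the 134 CPM of the vascular genes. Replicate 1 of D1 Susceptible held 0.609 of 1.11 CPM, from 6 counts, and 48.6 of 182 CPM. D2 Resilient replicate 5 was the lowest D2 library and D2 Susceptible replicate 1 the highest for both measures. That Resilient library was also the D2 library with the highest sum of D1 markers, with 414 CPM of Drd1. In D1, Control replicate 1 and Susceptible replicate 1, the highest libraries of Gper1, had vascular sums of 40.01 and 48.6 CPM, while Susceptible replicate 4 had the highest sum, 49.5 CPM, and 0.0619 CPM of Gper1. The part of vascular RNA in the Gper1 difference was not tested. In pulled-down RNA, fewer cells that carry a transcript and less of it per cell cannot be told apart.

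**Figure D3:**
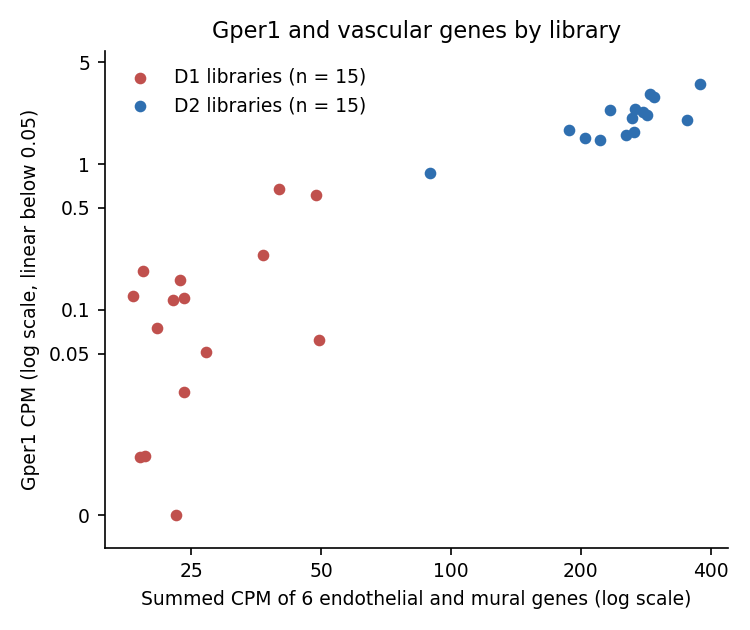
Gper1 in CPM (log scale, linear below 0.05) against the summed CPM of 6 endothelial and mural genes (log scale), with 1 point per library. The 15 D1 libraries lie at 18.3 to 49.5 CPM of vascular genes and the 15 D2 libraries at 89.4 to 377.5 CPM, so both measures separate the classes.

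Most of the other cell type lists differed between the classes as well. Summed astrocyte markers averaged 45.9 CPM in D1 and 135 CPM in D2, and oligodendrocyte markers 512 and 905 CPM. Microglial markers summed to 7.80 to 27.2 CPM in D1 and 9.79 to 30.9 CPM in D2. In the other direction, interneuron markers averaged 342 CPM in D1 and 97.4 CPM in D2, and markers of cortical and other glutamatergic neurons 736 and 335 CPM. Markers of neighbouring septal, preoptic and hypothalamic neurons averaged 68.7 and 62.5 CPM, of which Nts made up 41.8 and 41.6 CPM. Members of that list went opposite ways: Calcr averaged 2.32 CPM in D1 and 6.28 in D2, and Lhx6 14.3 and 4.31 CPM. The part of these lists in any receptor difference was not tested.

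Esr1, the oestrogen receptor alpha, was carried at a low and similar level in both classes. D1 Control libraries had 2.47, 2.55, 3.28, 2.75 and 1.48 CPM and D2 Control libraries 2.07, 1.95, 2.89, 2.38 and 2.38 CPM. The log2 difference over all conditions was 0.091 (SE 0.284, edgeR adjusted p 0.852), with an interval of 2 SE from -0.48 to 0.66, and it turned to -0.016 without D2 Susceptible replicates 1 and 2. The levels overlapped in all 6 groups. D2 Susceptible replicate 1 had 0 counts of Esr1, where 3 counts would be 0.0644 CPM, and the 4 other libraries of that group had 2.16, 3.07, 2.04 and 2.54 CPM. The D2 Susceptible change against Control, -0.25 (SE 0.491, edgeR adjusted p 0.834), was 0.065 without that library and 0.12 without replicates 1 and 2.

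Esr2, the oestrogen receptor beta, was close to the limit of detection. It had 142 counts over all 30 libraries, and 12 libraries had none. D1 libraries ranged from 0 to 0.406 CPM and D2 libraries from 0 to 0.427 CPM. The highest D1 value, in Susceptible replicate 1, stood for 4 counts. D2 Control had 4 of 5 libraries at 0, while D2 Resilient had 0, 0.241, 0, 0.427 and 0.322 CPM. That contrast gave a log2 change of 3.60 (SE 1.52, edgeR p 0.0247) and an adjusted p of 1.00, and the groups overlapped. The 4 counts of D2 Control were all in replicate 4, so the fitted change is set by that library. It was 6.44 without it, again not called.

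Pgr, the progesterone receptor, had 14.9 to 24.2 CPM in the 15 D1 libraries and 14.8 to 22.7 CPM in the 10 libraries of D2 Control and D2 Resilient. D2 Susceptible libraries had 62.1, 29.8, 17.5, 25.0 and 19.8 CPM, against 14.8, 17.4, 18.4, 16.6 and 22.7 CPM in D2 Control. Replicate 1 was the highest of all 30 libraries and replicate 2 the next, replicate 4 lay just above the D2 Control libraries, and replicates 3 and 5 lay among them. The log2 change in D2 Susceptible was 0.78 against Control (SE 0.219, edgeR adjusted p 0.158) and 0.67 against Resilient (SE 0.219, edgeR adjusted p 0.0992).

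Neither change of Pgr passed in the edgeR fit, although the DESeq2 Wald test called both, with log2 changes of 0.81 (adjusted p 0.0367) and 0.70 (adjusted p 0.0439). DESeq2 called 1.54% of all genes it tested against Control and 5.24% against Resilient. With D2 Susceptible replicates 1 and 2 left out they were 0.20 and 0.10 (edgeR adjusted p 1 for both), and without replicate 1 alone 0.35 and 0.25. Leaving out replicate 3 or 5 of that group gave calls, at 0.92 and 0.90 against Control (edgeR adjusted p 0.0332 and 0.0437) and at 0.82 and 0.80 against Resilient (edgeR adjusted p 0.0166 and 0.0264). The calls among all genes grew there as well. Against Control, 4.19% of genes were called without replicate 3 and 0.858% without replicate 5, from 1 gene with all libraries. Against Resilient, 9.93% and 8.11% were called, from 10 genes.

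Most markers of other neurons had a negative fitted change in D2 Susceptible, with sums that overlapped those of the other D2 groups. The log2 change of the 7 D1 markers was negative in 7 of 7, with a median of -1.01 against Control and -1.25 against Resilient, where the median of all genes was -0.034 in both. None was called by edgeR (smallest adjusted p 0.18 and 0.0864). Their sum per library was 281 to 637 CPM in D2 Susceptible, against 344 to 1236 CPM for Control and 371 to 1858 CPM for Resilient libraries of D2. The Resilient means were pulled up by 1 library: Drd1 averaged 139 CPM there, with a median of 66.9 and a highest value of 414 CPM. Median Drd1 was 55.3 CPM in D2 Susceptible and 71.6 CPM in D2 Control. By median only Tac1 was higher in D2 Susceptible than in D2 Resilient, at 237 against 229 CPM. Replicates 1 and 2, with the most Pgr, had the highest sums of the 5 D2 Susceptible libraries, 637 and 516 CPM. Of the 6 interneuron markers, 5 had a negative change against Control (median -0.96) and 6 against Resilient (median -0.41). None of these was called by edgeR either (smallest adjusted p 0.0526 and 0.0586). Their sum was 63.3 to 80.5 CPM in D2 Susceptible, against 69.4 to 262 CPM for Control and 66.7 to 178 CPM for Resilient. None of these markers was at 0 in every library, and their part in the Pgr difference was not tested.

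Between the classes within Susceptible, Pgr averaged 20.6 ± 3.22 CPM in D1 libraries and 30.8 ± 18.1 in D2 libraries (log2 -0.59, SE 0.220, edgeR adjusted p 0.0507). This value was 0.0057 without D2 Susceptible replicates 1 and 2. Within Control the value was 0.030 (SE 0.218, edgeR adjusted p 0.970), with an interval of 2 SE from -0.41 to 0.47. The D1 change of Pgr in Susceptible against Control was 0.16 (SE 0.220, edgeR adjusted p 1). The difference between the D1 and D2 changes was -0.62 (SE 0.309, edgeR adjusted p 0.643), so it was not shown to differ by class. It was -0.18 without D2 Susceptible replicate 1, -0.035 without replicates 1 and 2, and -0.16 with voom.

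**Figure D4:**
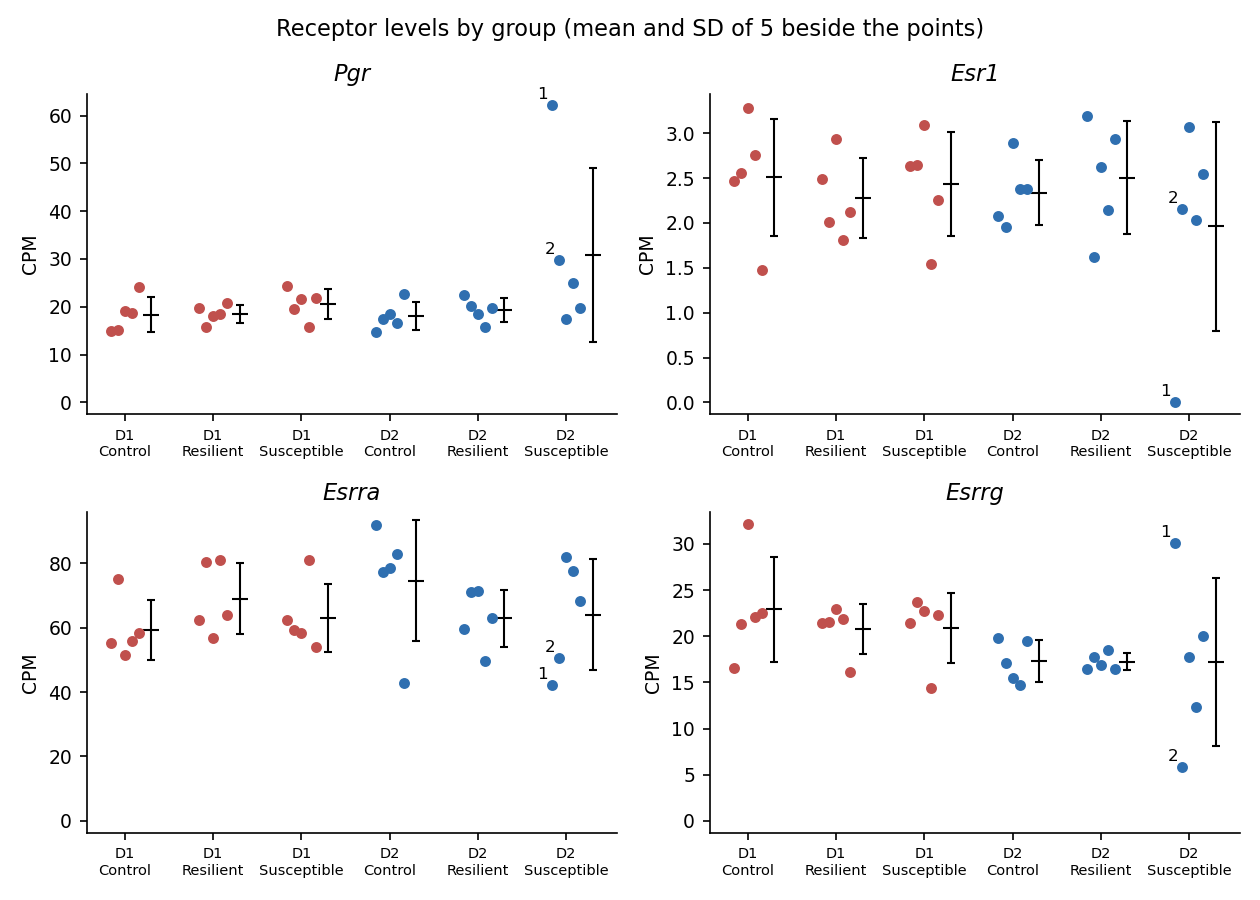
Pgr, Esr1, Esrra and Esrrg in CPM per library by group; points are libraries, bars beside them are the mean and SD of 5, and 1 and 2 mark D2 Susceptible replicates 1 and 2. Replicate 1 is highest for Pgr (62.1 CPM), at 0 for Esr1 and lowest for Esrra (42.2 CPM), and replicate 2 is lowest for Esrrg (5.80 CPM).

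Esrra, which drives mitochondrial genes with its coactivators, ranged from 42.2 to 91.9 CPM over the 30 libraries. D1 Control libraries had 55.2, 75.2, 51.4, 55.9 and 58.5 CPM, and D2 Control libraries 91.9, 77.2, 78.4, 82.8 and 42.7 CPM. All but replicate 5 of D2 Control lay above all D1 Control libraries. The class difference within Control was -0.33 (SE 0.174, edgeR adjusted p 0.295), where limma voom with quality weights gave -0.42 and called it (adjusted p 0.00752), as it did 28.5% of all genes. Over all conditions it was -0.075 (SE 0.101, edgeR adjusted p 0.626), where voom gave -0.20 and called it, as it did 39.8% of all genes. Resilient against Control gave 0.22 in D1 and -0.25 in D2, and the difference between these changes was 0.47 (SE 0.246, edgeR adjusted p 1). Of the exon length of Esrra, 1.66% overlaps Trmt112 on the opposite strand and 2.07% the microRNA gene Mir6990, and the strand setting of the counting is not given in the sources used here.

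Esrrg, the oestrogen-related receptor gamma, averaged 21.5 ± 4.04 CPM in D1 and 17.2 ± 5.02 CPM in D2 (SD, n = 15 each), with overlapping libraries. D1 Control libraries had 16.6, 21.3, 32.1, 22.0 and 22.5 CPM, and D2 Control libraries 19.8, 17.1, 15.5, 14.7 and 19.5 CPM. D2 Susceptible libraries spread widest, at 30.1, 5.80, 17.8, 12.4 and 20.0 CPM. The log2 difference over all conditions was 0.32 (SE 0.137, edgeR adjusted p 0.0797), which did not pass. It passed without D2 Susceptible replicate 1 (0.44, edgeR adjusted p 0.00621), without replicates 1 and 2 (0.35, edgeR adjusted p 0.00242) and with voom (0.35, adjusted p 6.97e-04). It also passed without D1 Control replicate 1, D1 Resilient replicate 5 or D1 Susceptible replicate 4, at 0.36 to 0.37. The share of all genes called was 30.4% without D2 Susceptible replicate 1, 30% without replicates 1 and 2, 39.8% with voom, and 28.6%, 29.8% and 28.3% without those 3 D1 libraries in the order named. Within Control voom gave 0.43 for Esrrg and called it, as it did 28.5% of all genes.

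Pgrmc1 was the steadiest of the 7, at 438.8 to 695.9 CPM over all 30 libraries. D1 Control libraries had 514, 526, 629, 591 and 603 CPM, and D2 Control libraries 469.9, 491, 520.5, 486 and 605 CPM. The log2 difference between the classes over all conditions was 0.056 (SE 0.0625, edgeR adjusted p 0.546), with an interval of 2 SE from -0.069 to 0.18. It was 0.15 and passed without D2 Susceptible replicates 1 and 2 (edgeR adjusted p 0.0276, where again 30% of all genes were called), which with 696 and 682 CPM were the highest 2 of all libraries. Voom called the class difference over all conditions at 0.18 and within Control at 0.23, where it called 39.8% and 28.5% of all genes. D2 Susceptible against Control was 0.14 (SE 0.108, edgeR adjusted p 0.550), and -0.096 without D2 Susceptible replicates 1 and 2.

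**Figure D5:**
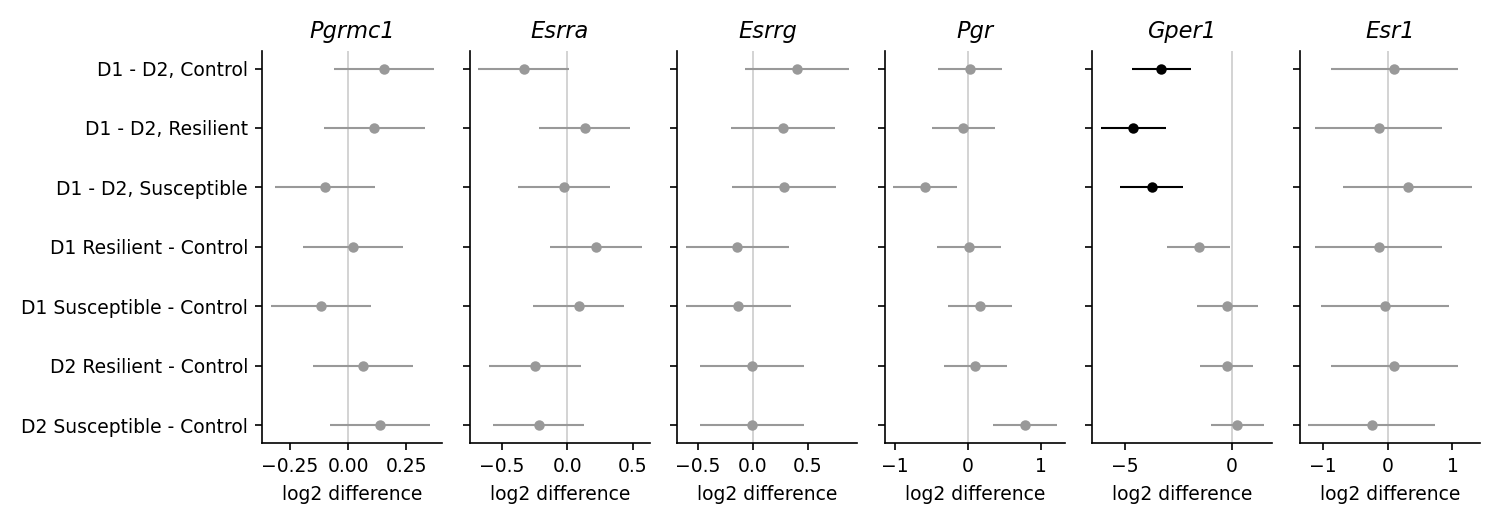
Log2 differences of 6 of the genes between the classes within each condition and between stressed and Control groups within each class, with bars of 2 SE; black points passed an edgeR adjusted p of 0.05 and grey points did not, and each panel has its own scale. Only the 3 class differences of Gper1, from -4.60 to -3.30, are black in these 7 comparisons.

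The stress comparisons asked whether a receptor changed in Susceptible or Resilient females of a class. By edgeR, 0 of the 7 genes passed in any of the 6 pairwise comparisons or in the 2 of both stressed groups against Control. At an unadjusted p under 0.05 there was 1 gene in D1 Resilient against Control, 1 in each of the 3 D2 pairwise comparisons and 1 in D2 stressed against Control. The share of all genes under that unadjusted limit is not given here, so counts at that limit carry no reading about the 7 genes. DESeq2 called 1 gene in D2 Susceptible against Control and 1 against Resilient, which was Pgr in both, and voom called 0. Of all genes it tested, DESeq2 called 1.54% and 5.24% in these 2 comparisons. Among all genes tested, edgeR called 0.00516% for D2 Susceptible against its Control, 0.0516% for the same group against D2 Resilient, and 0% in the other 6. None of the 7 passed for a difference between the D1 and D2 changes either, where 0% of all genes did (0 of 7 at an unadjusted p under 0.05).

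Gper1 had the smallest unadjusted p in D1, with a change of -1.56 in Resilient against Control (SE 0.737, edgeR p 0.0419, adjusted p 1). It was -0.33 without D1 Control replicate 1, which held 43 of the 61 counts of that group. In D2, Gper1 changed by -0.25 in Resilient against Control (SE 0.626, edgeR adjusted p 1) and differed by 0.50 between Susceptible and Resilient (SE 0.626, edgeR adjusted p 0.700), or by 0.14 without D2 Susceptible replicates 1 and 2.

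Genes around the receptors were described by list. None of the genes on the 6 lists passed in any stress comparison within a class. Between the classes over all conditions the median log2 difference of all genes tested was 0.00455. Of all genes, 29.3% were called there, 15.5% as lower in D1, and the list counts below are to be read beside these shares. Of 12 genes of membrane steroid signalling, 4 were lower in D1 and 1 higher (median -0.16). Cav1, a caveolin that anchors membrane receptors and is abundant in vessels, averaged 0.945 ± 0.409 CPM in D1 libraries and 6.10 ± 2.13 in D2 libraries (log2 -2.68, edgeR adjusted p 9.30e-11). Among the membrane progesterone receptors, Paqr5 (-2.24) and Paqr8 (-0.32) were lower in D1 and Paqr7 (0.39) was higher. Paqr5 was low in both classes, at a mean of 0.436 CPM in D1 and 2.06 CPM in D2. Paqr6 averaged 0.491 CPM in D1 and 1.26 CPM in D2, and Paqr9 89.6 and 93.0 CPM.

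Of 16 tested genes of steroid synthesis and conversion (22 listed), 4 were lower and 2 higher in D1 (median 0.018). Tspo, a mitochondrial protein of steroid-making and glial cells, averaged 0.383 ± 0.226 CPM in D1 libraries and 2.11 ± 1.00 in D2 libraries (log2 -2.44, edgeR adjusted p 1.52e-07). Akr1c14, which makes neurosteroids from progesterone, differed by -3.98 and Sult1a1, a sulfotransferase, by -2.22. Hsd17b11 differed by -0.29. Vascular and astrocyte markers, given above, also stood lower in D1, and their part in these differences was not tested. Cyp19a1, the aromatase that makes oestradiol, had 0.0971 to 0.742 CPM in D1 and 0 to 0.704 CPM in D2, and Cyp17a1, which makes its androgen precursors, had 0 counts in all libraries.

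Of 16 tested genes known to respond to oestrogen or progesterone (18 listed), 5 were higher and 3 lower in D1 (median 0.056). Oxtr, the oxytocin receptor, averaged 12.8 ± 1.98 CPM in D1 libraries and 3.24 ± 1.69 in D2 libraries (log2 2.06, edgeR adjusted p 9.00e-12). Igf1, insulin-like growth factor, differed by 1.86 and its binding protein Igfbp4 by 0.72, and Trim25, an oestrogen-induced ubiquitin ligase, by -1.22. Markers of interneurons, given above, also stood higher in D1, and their part in these differences was not tested.

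Of 9 receptor chaperones, 4 were higher and 1 lower in D1 (median 0.20), with Hspa8 at 0.35, Hsp90ab1 at 0.20, Fkbp4 at 0.21 and Fkbp5, which restrains steroid receptors, at -0.23. Of 14 energy genes known to respond to the oestrogen-related receptors, 2 were higher and 3 lower (median 0.041). Idh3a and Cs of the citric acid cycle were higher by 0.34 and 0.23, and Pdk4, a brake on pyruvate use, differed by -1.40. Cox5a differed by -0.30 and was not called without D2 Susceptible replicates 1 and 2 (-0.13). In that setting 3 of the 14 were higher and 1 lower, against 30% of all genes called. Of 16 coregulators, 3 were lower and 0 higher (median -0.030): Ppargc1b (-0.61), Crebbp (-0.44) and Pelp1 (-0.29). None of these 3 was called by voom, with no filter on low counts, or without D2 Susceptible replicates 1 and 2. That last setting called 1 of the 16, higher in D1, against 30% of all genes.

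For each member, the genes most alike were taken as those with the highest smaller value of Pearson's r of log2 CPM, centred on the group means, over the 15 D1 and over the 15 D2 libraries, among 15161 genes. These values are descriptions, since the libraries share depth and composition. Closest to Pgrmc1 was Ywhab, with r of 0.939 in D1 and 0.937 in D2, then Eid1 (0.918 and 0.920). Closest to Esrra was Creld1 (0.944 and 0.914), then Tbc1d10a. Closest to Esrrg was Zfp59 (0.821 and 0.901), then Edem3. Without D2 Susceptible replicate 1 the D2 values of Ywhab, Creld1 and Zfp59 were 0.920, 0.892 and 0.874.

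For Pgr the closest were Mib1 (0.891 and 0.901) and Dok6 (0.880 and 0.903), and the D2 values were 0.734 and 0.799 without D2 Susceptible replicate 1. For Esr1 they were Kdelc2 (0.805 and 0.965) and Mthfd2l (0.780 and 0.727), with D2 values of 0.804 and 0.319 without that library. For Gper1 they were Lrp4 (0.751 and 0.773), and Cd63-ps, a pseudogene that can share reads with its parent gene. For Esr2 they were Prss56 (0.748 and 0.716) and Cldn34c1 (0.701 and 0.882), all at low counts.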

How the data were processed

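Ribosome-bound RNA from 30 libraries was analysed. Per the labels, polyribosomes were immunoprecipitated with an antibody to the HA tag, and SMART-Seq v4 libraries were made from 10 ng of RNA. The values are the authors' deposited counts of reads in each gene, not normalized. HISAT2, HTSeq, GRCm38 and mm10 are named in the submitters' processing notes, and no source used here states the strand setting or the annotation release. Summary lines of unassigned reads (10.1% to 53.3% of a library) stayed out. The male and human data were not analysed here.

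Symbols and coordinates come from GENCODE M21 (55154 of 55335 genes had a symbol), and promoters from RefSeq GRCm38.p6. Counts were filtered with filterByExpr (minimum count of 10), scaled by TMM and tested by edgeR 4.0.16's quasi-likelihood F test in 1 model of 6 groups, with 15 comparisons, Benjamini-Hochberg adjusted over 19368 genes at 0.05. The exact permutation tests planned for members under the filter were not needed, as 0 members were set aside. Alternatives used DESeq2 1.42.0, limma 3.58.1 (voom), other scaling, no filter, only the groups compared, a replicate block and leaving out libraries. Leaving out D2 Susceptible replicates 1 and 2, also together with D1 Susceptible replicate 1, was added after the data were seen. The members and lists were chosen with earlier results of these data known. Named list genes are up to 4 per list by the smallest adjusted p, beside the markers, and a few others (Cyp19a1, Cyp17a1) were picked after their values were seen. The scripts were tried on simulated data. Replicates are pools of 4 mice. The libraries carry no molecular identifiers, so limits set by a count of 0 (3 counts) cover counting error only.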

Additional observations from a re-analysis of the deposited data

Results flagged for a closer look

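A single library lay far from the other 4 of its group, by Dixon's test at 95%, in 5 of 42 sets (7 genes in 6 groups). Chance flags about 1 in 20 sets of normally spread values. That rate does not hold for sets near a count of 0, as for Esr2 and for Gper1 in D1. Pgr was 62.1 CPM in D2 Susceptible replicate 1, against 17.5 to 29.8 CPM in the other libraries of that group. Gper1 was 0.677 CPM (43 counts) in D1 Control replicate 1, against 0 to 0.185 CPM. Esrrg was 16.1 CPM in D1 Resilient replicate 5, against 21.4 to 23.0 CPM, and 14.3 CPM in D1 Susceptible replicate 4, against 21.4 to 23.7 CPM. Esr2 was 0.0731 CPM (4 counts) in D2 Control replicate 4, against 0 in the other 4 libraries, and a set with only 1 library above 0 is always flagged.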

How the results depend on the processing

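The number of the 7 genes called was recomputed 316 times over the 15 comparisons, and 20 of these values moved. With DESeq2 it was 1 in D2 Susceptible against Control and 1 against Resilient, from 0 in each. DESeq2 called 1.54% and 5.24% of all genes there. Between the classes within Susceptible the number was 2, from 1, where DESeq2 called 5540 genes in all. DESeq2 size factors in edgeR also gave 2 there. Over all alternatives, 915 to 5540 of all genes were called in that comparison, against 4621 of 19368 in the main fit. Voom gave 4 between the classes within Control and 4 over all conditions, from 1 in each. Of all genes, voom called 28.5% and 39.8% in these comparisons. Over all conditions the number was 3 without D2 Susceptible replicates 1 and 2, where 30% of all genes were called. It was also 3 without these and D1 Susceptible replicate 1. The alternatives called 5322 to 7711 of all genes over all conditions, against 5679 of 19368 in the main fit. With 1 library left out the number of the 7 genes called ranged from 0 to 1 in D2 Susceptible against Control and against Resilient. It ranged from 1 to 2 between the classes within Susceptible and over all conditions. The calls among all genes ranged there from 0 to 828, 0 to 1964, 3508 to 6218 and 5161 to 6622, in the same order. The 64 changes of single genes given above were recomputed 1811 times: 1708 kept direction and side of the threshold, 60 lost the call, 26 gained one and 17 changed sign, none of them a called change of a receptor.

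The sign changes were near 0. Without D2 Susceptible replicates 1 and 2, the Susceptible class difference of Pgr was 0.0057. In D2 Susceptible against Control, Esrra was 0.017 without these 2 and 0.021 without all 3 libraries, Pgrmc1 was -0.096 and -0.094, and Esr1 was 0.12 in both. Voom gave -0.049 for Pgrmc1 and 0.066 for Esr1 there. Esr1 was 0.023 and 0.020 against D2 Resilient, where voom gave 0.13, and -0.016 and -0.041 between the classes over all conditions. With 1 library left out, Pgr between the classes within Control ranged from -0.070 to 0.14 and Esr1 in D2 Susceptible against Control from -0.47 to 0.065. For these values the cause was not tested.

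Same-numbered libraries did not deviate together: 0 of 75 pairs had a correlation over 0.1 (mean -0.00399), and 2 of 30 libraries correlated best with their own number. With a replicate block the number of members called was 1 in each class comparison and 0 elsewhere, as without it, and Pgr changed by 0.72 in D2 Susceptible against Control. The number of all genes called moved more: 1608 between the classes within Control became 5511 with voom, and 4621 within Susceptible ranged from 915 to 5540 over the alternatives. Over all conditions voom called 5 higher and 6 lower of the steroid synthesis genes, from 2 and 4, where it called 39.8% of all genes. Depth limits Esr2 and, in D1, Gper1.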
